A study of Mus musculus with 2 samples.

Results

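The transcription factors that keep lung epithelial cells lung epithelium were followed through the epithelium of the embryonic mouse lung, as 10 genes chosen by symbol out of the 31053 listed: Nkx2-1, Foxa1, Foxa2, Gata6, Foxp1, Foxp2, Foxp4, Elf3, Cebpa and Grhl2. All 10 were listed and all 10 had counts. The series asked how the LEF/TCF factors, which carry Wnt signals to DNA, act in lung epithelial progenitors, with 1 droplet single-cell RNA library from control lungs and 1 from lungs that lack these factors. Both came from epithelial cells sorted from mouse lungs at embryonic day 15. The labels give the genotypes as control and as a mutant, and give no strain, sex, driver of the deletion or number of pooled embryos. Every value here comes from the control library, since expression in the knockout library was not analysed here. With 1 library there is no replicate check: all intervals are exact 95% intervals that cover counting error only, no test between groups of cells was made, and a difference between them is a description of this library.

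Nkx2-1 is the homeobox factor that marks the lung field of the foregut and later drives surfactant and secretory genes. The forkhead factors Foxa1 and Foxa2 open chromatin in foregut endoderm and act with Nkx2-1, and Gata6, a zinc-finger factor, acts beside them in lung branching and alveolar differentiation. Foxp1, Foxp2 and Foxp4 are forkhead repressors, Foxp2 being best known for the distal lung epithelium. Elf3 is an ETS factor of epithelia, Cebpa a leucine-zipper factor of maturing alveolar and airway cells, and Grhl2 a Grainyhead factor that maintains epithelial junctions.

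The library held 3568 barcodes with between 504 and 112424 unique molecular identifiers (UMIs, each standing for a captured RNA molecule) per barcode. Cells with at least 1000 genes and at most 10% mitochondrial UMIs numbered 3457, with 53639813 UMIs in all and a median of 12826, and 29 barcodes were also present in the knockout library. Clusters were built without the 10 factors, without the gene lists described below and without cell-cycle genes, and were named from marker genes. The distal progenitor-like class held 1263 cells (4 clusters with Sox9, Etv5 and Sftpc, median 10772 UMIs). Its level of Epcam, a pan-epithelial gene, was 445 CPM (UMIs per 1000000), against 785 in airway-like, 892 in unnamed and 993 CPM in type 2-like cells, and the part of this gap in the ratios was not tested. Of its 885 UMIs of the platelet gene Pf4, 867 came from 1 cell. The airway-like class held 746 cells (Sox2, Sox21, Scgb3a2 and Trp63, median 9317 UMIs), and its summed neuroendocrine markers were at 71.2 CPM, against 11.3 to 14.8 CPM in the other epithelial classes. The alveolar type 2-like class, the only alveolar-leaning class that could be named, held 628 cells (Sftpb, Sftpa1 and Lamp3, median 16138.5 UMIs), with these markers at the fold needed over all other cells. Against distal cells, Sftpb was at 72.5 and 35.1 CPM and Sftpa1 at 77.5 and 36.4 CPM, but the intervals of Lamp3 overlapped, at 6.82 CPM (5.40 to 8.502) and 5.16 CPM (4.08 to 6.44). Of the other type 2 markers, Slc34a2 had 1 UMI and Lyz2 had 0, against 3 and 8 in distal cells. Some distal genes were at or above their level in distal cells, with Sox9 at 172 and 171 CPM and Id2 at 1219 and 1042 CPM, so the name rests on few genes. A cluster of 777 cells led by Cym, Smoc2, Tinag and Ager had only 2 detected type 1 markers at the fold needed. It met the fold over airway-like cells for all 6 distal markers, but its leading genes held the type 1 marker Ager and no distal marker, so it is called unnamed and was kept out of the distal class. A group of 43 mesenchymal-like cells served as the non-epithelial comparison. Lung mesenchyme is itself known to express FOXP genes and Gata6, so these cells give a background level for the FOXA genes and Nkx2-1 but not for those 4 factors. Cells with at least 4 Xist UMIs and a Y-linked UMI are called here cells with both Xist and Y-linked UMIs. They made up 2.77% of distal, 3.03% of type 2-like, 6.17% of airway-like and 19.2% of unnamed cells. Values without them stand beside the ratios.

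Over the 3414 epithelial cells, the factors spanned a wide range of levels. UMIs are counted at the 3′ end of each transcript and were not divided by gene length. Nkx2-1 had 346 CPM (342 to 352), Foxp2 261 CPM (257 to 266), Foxp1 118 CPM (115 to 121) and Foxa2 66.1 CPM (64.0 to 68.4). Gata6 followed at 56.3 CPM (54.4 to 58.4), Foxa1 at 47.1 CPM (45.3 to 49.0) and Foxp4 at 42.0 CPM (40.2 to 43.7). Grhl2 at 14.8 CPM, Elf3 at 10.2 CPM and Cebpa at 6.44 CPM were the low members, with 786, 544 and 343 UMIs in all. No neighbours in this order had overlapping counting intervals. In the mesenchymal-like cells Foxa1, Foxa2 and Grhl2 had 0 UMIs, which allows up to 8.21 CPM, and Nkx2-1, Elf3 and Cebpa had 1 UMI each. Foxp1 at 54.7 CPM, Foxp2 at 35.6 CPM, Gata6 at 21.9 CPM and Foxp4 at 10.9 CPM were detected there.

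**Figure D1:**
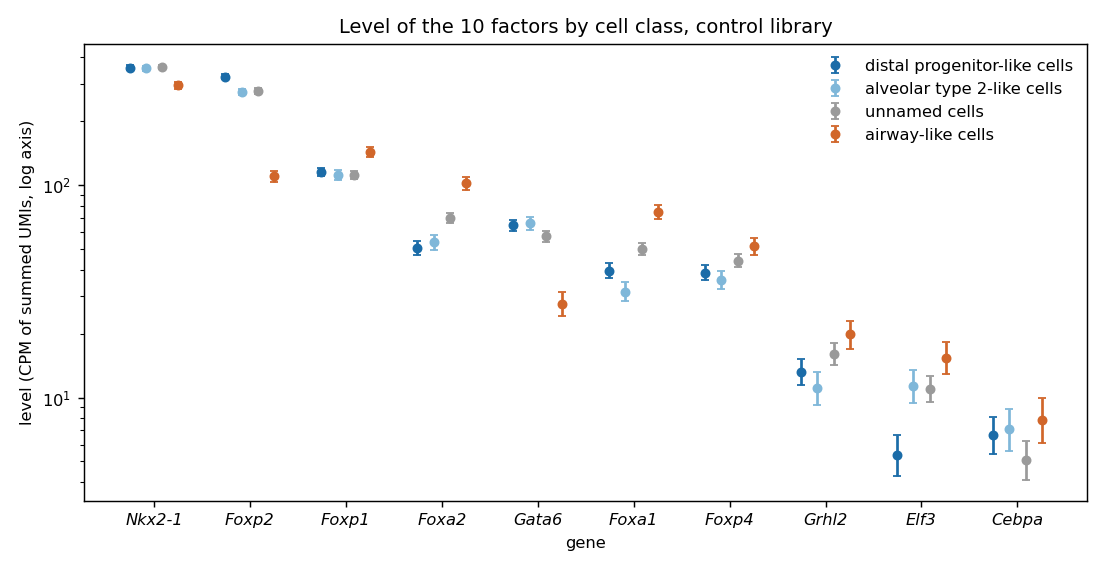
Level of each factor (CPM of summed UMIs, log axis) in the 4 epithelial classes of the control library, ordered by overall level; points are class levels and bars exact 95% counting intervals. Foxp2 is at 109.7 CPM in airway-like cells against 323 CPM in distal cells, while Nkx2-1 stays between 295 and 359 CPM.

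Nkx2-1 was the most even of the abundant factors. Its level was 359 CPM (350.2 to 368) in unnamed, 357 CPM (348 to 367) in distal and 353 CPM (343 to 364) in type 2-like cells. These 3 intervals overlap, and airway-like cells stood below them at 295 CPM (284 to 306). The airway over distal ratio was 0.825 (0.787 to 0.865). In cells of at most 14000 UMIs, type 2-like cells stood at 305 CPM (282 to 330) and airway-like cells at 298 CPM (283 to 315). Distal cells were at 360 CPM (348 to 372) and unnamed cells at 394 CPM (371 to 418) under that limit. There the type 2-like interval lay below those of distal and unnamed cells and overlapped that of airway-like cells. The gene lies on chromosome 12 at 56531958 to 56536908 on the minus strand (GRCm38), 1003719 bases from Foxa1.

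Foxa1 and Foxa2 both had their highest level in airway-like cells. Foxa1 stood at 74.5 CPM (68.9 to 80.4) in airway-like, 49.97 CPM (46.7 to 53.4) in unnamed, 39.6 CPM (36.5 to 42.9) in distal and 31.5 CPM (28.4 to 34.9) in type 2-like cells, with no overlap between neighbours. In cells of at most 14000 UMIs, airway-like cells were still highest for Foxa1, at 68.5 CPM (61.1 to 76.6). Its intervals overlapped there in unnamed (36.1 CPM, 29.5 to 43.8), distal (36.2 CPM, 32.5 to 40.2) and type 2-like cells (30.6 CPM, 23.5 to 39.3). Foxa2 stood at 102 CPM (95.1 to 108) in airway-like, 69.7 CPM (65.9 to 73.8) in unnamed, 53.7 CPM (49.6 to 58.1) in type 2-like and 50.6 CPM (47.1 to 54.3) in distal cells. Only the last 2 of these could not be told apart. The airway over distal ratios were 1.88 (1.68 to 2.11) for Foxa1 and 2.01 (1.82 to 2.21) for Foxa2. The balance of the pair hardly moved between airway and distal cells, Foxa1 giving 42.3% (39.8 to 44.8) of their joint UMIs in airway-like and 43.9% (41.2 to 46.6) in distal cells. In type 2-like cells that share was 37.0% (34.0 to 40.1).

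Foxa1 (chromosome 12, 57540628 to 57546916, minus strand) and Foxa2 (chromosome 2, 148042877 to 148046969, minus strand) each have a RefSeq start window with a motif of a factor family in the set. The parts outside exons are shown because these genes were higher in the same cells and the windows hold a match. Both windows come from GRCm38.p6, are written 5′ to 3′ on the gene's strand and lie inside the annotated gene but outside its exons. Capitals in Foxa1 mark the forkhead heptamer TGTTTAC, a motif of its own family, read on the opposite strand. Capitals in Foxa2 mark 2 overlapping motifs, the thyroid-transcription-factor core CTCAAG on the opposite strand and the GATA hexamer AGATAA. Another Foxa2 window, not shown, held the ETS motif AGGAAGT.
Foxa1, chr12:57546122-57546361, minus strand: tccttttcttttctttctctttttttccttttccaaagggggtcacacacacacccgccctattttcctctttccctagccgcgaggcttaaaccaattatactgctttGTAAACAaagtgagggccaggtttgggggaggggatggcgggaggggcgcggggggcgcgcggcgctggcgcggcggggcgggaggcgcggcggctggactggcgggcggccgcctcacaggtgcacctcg
Foxa2, chr2:148045465-148045714, minus strand: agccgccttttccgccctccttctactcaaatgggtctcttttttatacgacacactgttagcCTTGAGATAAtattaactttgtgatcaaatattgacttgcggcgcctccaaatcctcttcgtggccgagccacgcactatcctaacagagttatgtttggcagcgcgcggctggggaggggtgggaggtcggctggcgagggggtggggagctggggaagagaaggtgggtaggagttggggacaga
Searched on both strands over 32851 windows of 300 bases, TGTTTAC was in 3.65% of windows, CTCAAG in 15.9% and AGATAA in 11.2%. The matches describe letters and not binding.

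Gata6 had the reverse order of the FOXA pair. It stood at 66.1 CPM (61.5 to 71.0) in type 2-like and 64.5 CPM (60.5 to 68.7) in distal cells, which could not be told apart, at 57.4 CPM (54.0 to 61.1) in unnamed and at 27.6 CPM (24.2 to 31.3) in airway-like cells. The airway over distal ratio was 0.427 (0.370 to 0.492). A non-coding gene on the opposite strand, 1010001N08Rik, had 271 UMIs against the 3002 of Gata6. The sources used here do not state whether counting used strand.

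The FOXP genes separated. Foxp2 (chromosome 6, 14901349 to 15441977, plus strand) stood at 323 CPM (314 to 332) in distal, 277 CPM (269 to 285) in unnamed, 273 CPM (264 to 283) in type 2-like and 109.7 CPM (103 to 117) in airway-like cells. Airway-like cells were far below the others, unnamed and type 2-like cells could not be told apart, and the airway over distal ratio of 0.340 (0.317 to 0.364) was the lowest among the 10 factors. Foxp1 (chromosome 6, 98925338 to 99522721, minus strand) was higher in airway-like cells by less, at 143 CPM (135 to 151) against 115 CPM (110.0 to 121) in distal, 112 CPM (106 to 118) in type 2-like and 111 CPM (106 to 116) in unnamed cells. Foxp4 (chromosome 17, 47867133 to 47924645, minus strand) stood at 51.4 CPM in airway-like, 44.1 CPM in unnamed, 38.6 CPM in distal and 35.8 CPM in type 2-like cells. The airway over distal ratios were 1.24 (1.15 to 1.33) for Foxp1 and 1.33 (1.18 to 1.51) for Foxp4, both below the 1.5-fold used here to call a gene higher.

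The make-up of the FOXP pool therefore differed between classes. Foxp2 gave 67.7% (66.6 to 68.8) of the pooled UMIs from the 3 genes in distal, 64.9% in type 2-like and 64.1% in unnamed cells, and 36.1% (34.3 to 38.0) in airway-like cells. Foxp1 was the leading FOXP gene in airway-like cells at 47.0% (45.1 to 48.9), against 24.2% (23.2 to 25.2) in distal cells, and Foxp4 gave 16.9% against 8.10%.

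Elf3 (chromosome 1, 135253575 to 135258568, minus strand) was the only factor past 1.5-fold between distal progenitor-like cells and each of the other 3 epithelial classes. It stood at 15.4 CPM (12.9 to 18.2) in airway-like, 11.3 CPM (9.46 to 13.4) in type 2-like, 11.0 CPM (9.53 to 12.7) in unnamed and 5.36 CPM (4.26 to 6.66) in distal cells. The ratio to distal cells was 2.88 (2.17 to 3.84) for airway-like, 2.11 (1.59 to 2.82) for type 2-like and 2.06 (1.58 to 2.70) for unnamed cells. These rest on 81 UMIs in distal cells and 131 to 195 in the others. The 5 pan-epithelial marker genes were also lower in distal cells, with a summed 1076 CPM. They summed to 2154 CPM in airway-like, 2182 CPM in type 2-like and 2189 CPM in unnamed cells. The part of this gap in the Elf3 ratios was not tested. Of all genes, 23.2% were higher by 1.5-fold over distal cells in airway-like, 15.5% in type 2-like and 14.0% in unnamed cells. How many genes passed in all 3 comparisons was not counted. Its RefSeq start window is shown because Elf3 was higher in airway-like cells beside the FOXA pair and the window holds the NK2 homeobox motif CAAGTG, in capitals, which was in 13.6% of all windows.
Elf3, chr1:135258569-135258722, minus strand: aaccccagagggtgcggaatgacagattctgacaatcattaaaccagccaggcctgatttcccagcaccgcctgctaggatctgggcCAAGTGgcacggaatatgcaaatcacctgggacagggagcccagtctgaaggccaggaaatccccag
Of the 7 motifs searched, none was shared by the 3 windows shown. The other motifs were the C/EBP motif TTGCNNAA (10.8% of all windows), the ETS motif AGGAAGT (9.35%) and the Grainyhead motif AACNNGTT (4.20%). Over the 11 windows found for 7 of the factors, each motif with a match was in 1 window, and AACNNGTT had no match.

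Grhl2 and Cebpa were low throughout. Grhl2 (chromosome 15, 37233036 to 37363569, plus strand) stood at 19.8 CPM (16.99 to 23.0) in airway-like, 15.996 CPM (14.2 to 17.97) in unnamed, 13.2 CPM (11.4 to 15.1) in distal and 11.1 CPM (9.22 to 13.1) in type 2-like cells, where each neighbour's interval overlaps the next. Its airway over distal ratio of 1.505 (1.22 to 1.85) lay at the threshold and was past it under 8 of 21 other settings. An antisense gene, Gm16136, had 1999 UMIs against 786 for Grhl2, so reads of the 2 could be mixed if counting ignored strand. Cebpa (chromosome 7, 35119293 to 35121928, plus strand) stood between 5.09 CPM in unnamed and 7.88 CPM in airway-like cells, and all neighbouring intervals overlapped.

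Between airway-like and distal cells, 4 of the 10 factors were higher by 1.5-fold or more (Elf3, Foxa2, Foxa1 and Grhl2), 2 were lower by as much (Gata6 and Foxp2) and 4 were within it. Of all 10630 genes whose UMIs in the 2 classes summed to 50 or more, 23.2% were higher by that fold, 6.55% lower and 29.8% either. The median log2 ratio was 0.36 over the 10 factors and 0.20 over all genes, so the typical gene was itself above 1. With ratios centred on that median gene, the higher share among all genes past the fold went from 78.0% to 56.4%, with 1569 genes higher and 1212 lower in place of 2471 and 696. Centred ratios were 1.63 for Foxa1, 1.74 for Foxa2, 1.07 for Foxp1, 0.716 for Nkx2-1 and 0.295 for Foxp2. No factor changed direction.

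Between type 2-like and distal cells, 9 of the 10 factors were within 1.5-fold. Elf3 alone was past it, higher, where 15.5% of 10493 genes were higher, 5.45% lower and 21.0% either. Foxp2 had a ratio of 0.845 (0.808 to 0.884) and Foxa1 one of 0.797 (0.697 to 0.909), both with intervals below 1. The ratio was 0.990 (0.9502 to 1.03) for Nkx2-1, 1.03 (0.932 to 1.13) for Gata6, 1.06 (0.953 to 1.18) for Foxa2 and 0.968 (0.900 to 1.04) for Foxp1. Against airway-like cells, type 2-like cells were higher for Foxp2 at 2.49 (2.32 to 2.68) and Gata6 at 2.40 (2.07 to 2.78), and lower for Foxa1 at 0.423 (0.371 to 0.481), Foxa2 at 0.528 (0.476 to 0.586) and Grhl2 at 0.558 (0.441 to 0.705). Among 10332 genes in that comparison, 10.3% were higher, 20.8% lower and 31.1% either. The comparisons share their classes and are not independent.

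The unnamed cluster was compared with distal cells after its values had been seen. Elf3 was again the only factor past the fold, where 14.0% of 10959 genes were higher, 2.12% lower and 16.1% either. Over all cells of these classes, Foxa2 at 1.38 (1.26 to 1.51) and Foxa1 at 1.26 (1.14 to 1.40) lay between distal and airway-like levels. In cells of at most 14000 UMIs this was not seen for Foxa1, at 36.1 CPM in the unnamed cluster and 36.2 CPM in distal cells. Foxa2 was then at 67.0 and 47.1 CPM, with airway-like cells at 97.7 CPM. Sox2 was at 19.4 CPM in this cluster, 5.42 CPM in distal and 144 CPM in airway-like cells, and the cluster's share of cells with both Xist and Y-linked UMIs was the highest. Without those cells, 628 of the cluster and 1228 distal cells were left. Elf3 was then at 10.499 CPM (8.75 to 12.5) and 5.39 CPM (4.25 to 6.74), Foxa2 at 68.3 and 48.7 CPM, and Foxa1 at 46.6 and 38.9 CPM.

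**Figure D2:**
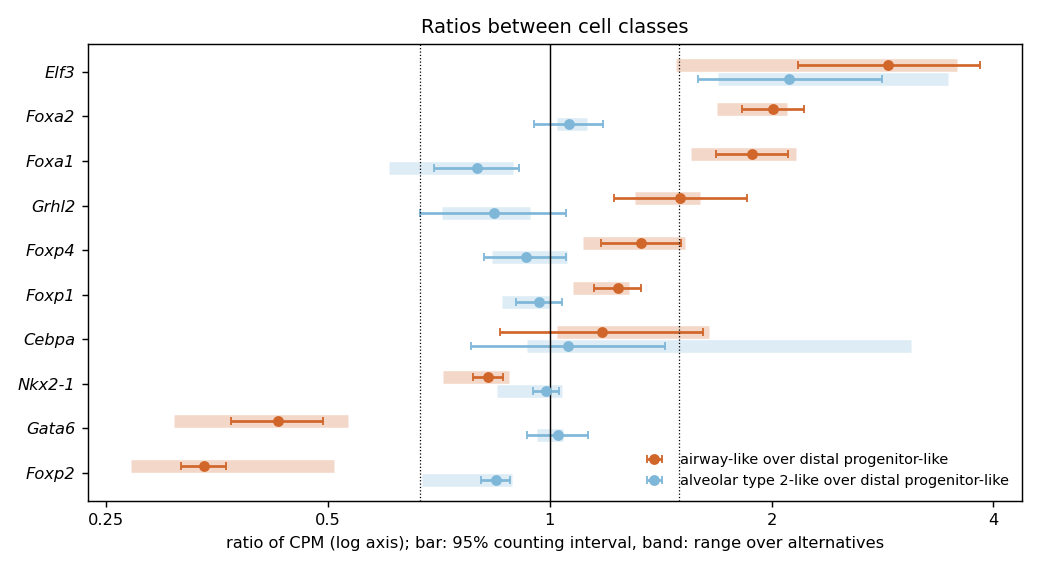
Ratio of CPM (log axis) of airway-like and of alveolar type 2-like cells over distal progenitor-like cells for the 10 factors. Points and bars are the ratios with 95% counting intervals, pale bands the range over the other settings, and dotted lines the 1.5-fold limits; Foxp2 at 0.340 and Elf3 at 2.88 are the ends of the airway comparison in the main clustering, and Elf3 falls to 1.49 in the setting at the low end of its band.

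The ratios were next taken without doubtful cells. Without cells that had both Xist and Y-linked UMIs the airway over distal ratio was 0.304 for Foxp2, 0.397 for Gata6, 0.814 for Nkx2-1, 1.87 for Foxa1, 2.07 for Foxa2, 1.52 for Grhl2 and 2.98 for Elf3. The type 2-like over distal ratio was then 2.12 for Elf3, 0.778 for Foxa1 and 0.832 for Foxp2. In cells of at most 14000 UMIs, with 171 type 2-like cells left, that ratio was 0.671 for Foxp2, 0.849 for Nkx2-1, 0.862 for Foxp1 and 3.14 for Elf3. Each of these lay outside the interval of its main ratio, and those of the other factors lay inside. Under the same depth limit the airway over distal ratio of Foxp2 was 0.277 and that of Gata6 0.367. In cells with a Y-linked UMI and no Xist UMI, Foxp2 stood at 0.270 and Gata6 at 0.309, and Foxp4 at 1.53 and Cebpa at 1.64 were past the fold while Grhl2 was not, so 5 factors were higher. The share of all genes past the fold in those cells is not given here, so this count is not read against a background. In cells high in Xist that lacked Y-linked UMIs, Gata6 stood at 0.533 and Foxa1 at 1.55. Foxa1, Foxa2, Gata6 and Foxp2 were past the fold in the same direction under all 21 settings that gave a ratio, and Elf3 under 20, the exception being 1.49 with 30 principal components. The sizes moved with the clustering. With 30 principal components Foxp2 was at 0.5098, which is 1.5 times the main ratio, and it was at 0.408 with cell-cycle genes kept, 0.405 with 1000 variable genes and 0.377 at resolution 0.3. Elf3 was at 1.67 at resolution 0.3 and with cell-cycle genes kept, 1.64 with the lists kept and 1.63 with 1000 variable genes. In these 5 settings no type 2-like class was separated and the distal class held 2197 to 2666 cells.

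To count cells at equal depth, each was thinned to 5000 UMIs, which left out 87 epithelial cells, 33 of them distal and 46 airway-like. Nkx2-1 was found in 81.1% of distal, 83.0% of type 2-like, 79.97% of unnamed and 72.0% of airway-like cells (95.2%, 98.1%, 98.6% and 87.4% before thinning), and in 0 of 38 mesenchymal-like cells, where finding none still permits 7.89%. Foxp2 was found in 65.9% of distal and 33.6% of airway-like cells (81.6% and 49.7% before), and in 15.8% (6.02 to 31.3) of mesenchymal-like cells. Gata6 was found in 26.2% and 11.4% of distal and airway-like cells (48.2% and 25.2% before) and in 7.89% of mesenchymal-like cells. Foxa2 was found in 20.7% and 36.0% (42.8% and 57.8% before) and Foxa1 in 16.8% and 30.1% (34.0% and 51.6% before), each in 0 of the 38 mesenchymal-like cells. Shares before thinning also count the cells under 5000 UMIs. Over all cells of each class, the median depth was 10772 UMIs in distal, 9317 in airway-like and 7246 in mesenchymal-like cells.

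The number of factors found in a cell was close across the epithelial classes. At 5000 UMIs a cell held a mean of 2.81 of the 10 factors in distal, 2.80 in type 2-like, 2.85 in unnamed and 2.76 in airway-like cells, with a median of 3 in each. Mesenchymal-like cells held a mean of 0.526. None of the factors was found in 1.98% of epithelial cells and 5 or more in 9.23%. The summed level of the 10 factors was 1014 CPM in distal, 955 CPM in type 2-like, 1000.2 CPM in unnamed and 845 CPM in airway-like cells.

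Foxp2 had a higher variance over mean from cell to cell than Nkx2-1, the factor of similar level. Its variance over mean at equal depth, which is 1 for counting error alone, was 1.84 in distal, 1.61 in type 2-like, 1.55 in unnamed and 1.53 in airway-like cells. For Nkx2-1 in distal cells it was 1.13. Across the other 9 factors and the same classes it ran from 0.927 to 1.23, but the excess over 1 grows with the mean, so the low factors are not ranked against Foxp2. In distal cells with a mean of 1.55 Foxp2 UMIs, 34.1% had none and 6.91% had 5 or more. Nkx2-1, with a mean of 1.80, was absent from 18.9% of the same cells and at 5 or more in 4.47%.

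Within the distal class, Foxp2 was higher in cells with proliferation RNAs, a split chosen after the data had been seen. Cells with a UMI of Mki67 or Top2a, genes of dividing cells, numbered 659 and had 378 CPM (358 to 400.1) of Foxp2 at equal depth, against 230.5 CPM (213 to 249) in the 571 cells without, a ratio of 1.64 (1.49 to 1.81). Foxp2 was the only one past 1.5-fold of the 8 factors with at least 50 UMIs, where 6.87% of 7186 genes were higher and 1.45% lower. Foxp1 had a ratio of 1.26 (1.09 to 1.47) and Nkx2-1 one of 1.23 (1.13 to 1.34), while the intervals of the other 7 held 1. The median depth before thinning was 11808 UMIs in cells with and 9989 in cells without these RNAs. Among the distal clusters, Foxp2 was at 350 CPM (337 to 364) in the cluster of 594 cells led by Spry2, at 333 CPM (314 to 353) in the cluster of 251 cells led by Xist, at 276 CPM (260 to 292) in the cluster of 391 cells with Ube2c and Mki67 among its leading genes, and at 168 CPM (119 to 229) in a cluster of 27 cells. Of the cluster led by Xist, 12.0% had both Xist and Y-linked UMIs.

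In airway-like cells the same split gave Foxp2 a ratio of 1.23 (0.974 to 1.55), and the difference from the distal ratio was not tested. As in distal cells, Nkx2-1 at 1.16 (1.01 to 1.32) and Foxp1 at 1.22 (1.002 to 1.48) had intervals above 1. Foxa1 stood at 92.7 CPM (74.5 to 114) in the 192 airway-like cells with Mki67 or Top2a and 65.0 CPM (55.4 to 75.7) in the 508 without, a ratio of 1.43 (1.09 to 1.86). Elf3 at 1.79 (0.979 to 3.22) was past 1.5-fold with an interval that held 1, where 8.85% of 5980 genes were higher and 4.41% lower. Split instead by a UMI of Scgb3a2, a secretory gene, Elf3 stood at 24.2 CPM (15.5 to 36.1, 24 UMIs) in 198 airway-like cells with and 11.2 CPM (7.41 to 16.1, 28 UMIs) in 502 cells without, a ratio of 2.17 (1.21 to 3.89). The intervals of the other 9 factors held 1, and Gata6 at 0.625 (0.344 to 1.07) was past the fold on 86 UMIs. Cebpa had under 50 UMIs in these cells and was not counted. Of the same genes, 6.30% were higher and 3.28% lower. Median depths before thinning were 12426.5 against 9273 UMIs in the first airway split and 10209 against 9397 in the second, and their part in these ratios was not tested beyond thinning.

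Epithelial cells were also gated on single genes, which needs the clusters only to remove the mesenchymal-like group. The gate genes Sox9, Sox2 and Sox21 were also among the markers that named the classes, so the gate is not an independent check. For 9 of the 10 factors the ratio had the same direction as between airway-like and distal cells. Of these, Foxp4 at 1.17 and Grhl2 at 1.55 had intervals that covered both directions. The share of all genes that kept their direction is not given here, so this count is not read against a background. Cebpa, the exception, had 0.857 (0.429 to 1.59), and 1.08 with all UMIs summed. At 5000 UMIs, 1246 epithelial cells had Sox9 and neither Sox2 nor Sox21, 350 had Sox2 or Sox21 without Sox9, and 74 had both kinds. Cells with Sox2 or Sox21 only were higher than Sox9-only cells for Foxa1 at 2.07 (1.65 to 2.58), Foxa2 at 2.18 (1.82 to 2.62) and Elf3 at 1.90 (1.10 to 3.23). They were lower for Gata6 at 0.325 (0.225 to 0.458) and Foxp2 at 0.313 (0.266 to 0.367), and Nkx2-1 stood at 0.817 (0.741 to 0.899). When all UMIs of the gated cells were summed, so that deep cells weigh more, the Foxp2 ratio was 0.406. The 74 cells with both kinds had 216 CPM (171 to 269) of Foxp2, between 303 CPM and 94.9 CPM in the single gates, and 24.3% of them had both Xist and Y-linked UMIs, against 6.82% and 11.4%.

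**Figure D3:**
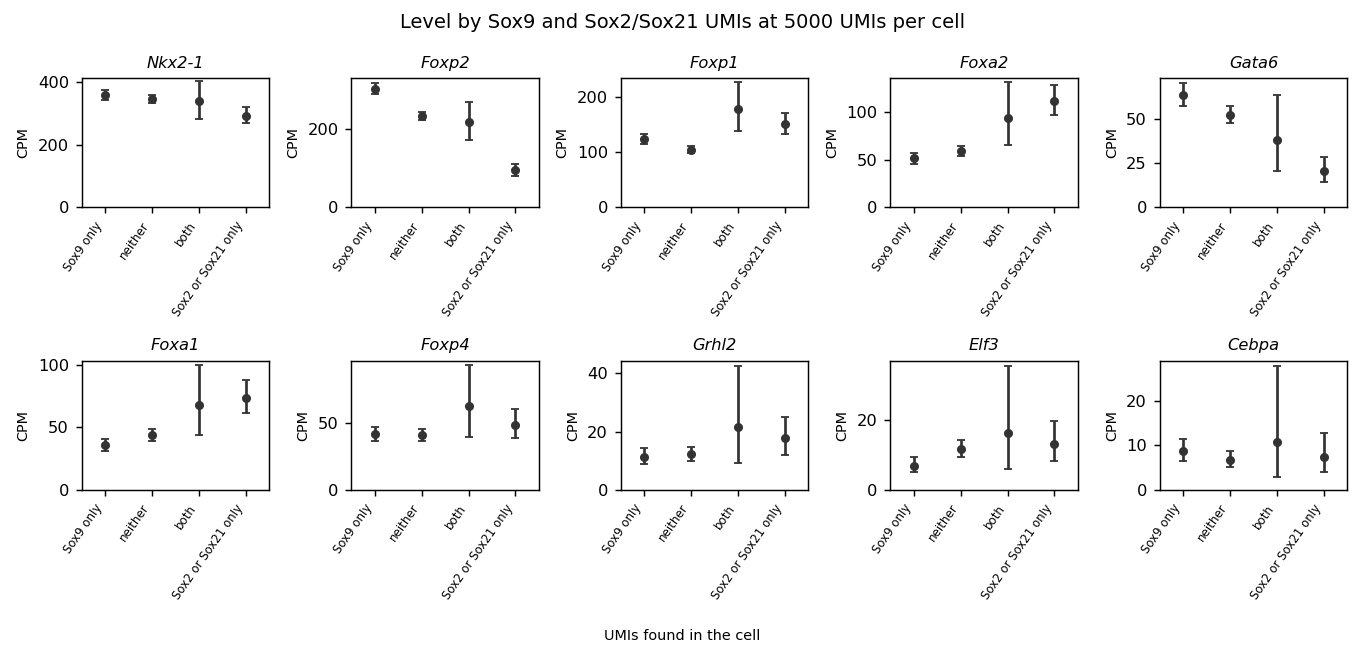
Level of each factor (CPM, linear axes from 0) in epithelial cells thinned to 5000 UMIs and grouped by the UMIs of Sox9 and of Sox2 or Sox21; bars are 95% counting intervals. Foxp2 goes from 303 CPM in Sox9-only cells to 94.9 CPM in cells with Sox2 or Sox21 only, and Foxa2 from 51.5 CPM to 113 CPM.

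Finer groups showed how the factors vary together. The epithelial cells were cut into 55 groups of at least 20 cells, 12 of them mostly airway-like, and log2(CPM + 10) was correlated across groups for the 7 factors with at least 1000 UMIs. The groups share 1 library and differ in depth, so Pearson r is given as a description. Foxa1 and Foxa2 had r = 0.76, and 0.61 over the 43 groups without an airway-like majority. Gata6 and Foxp2 had 0.80, and 0.50 over the 43. Nkx2-1 and Foxp2 had 0.56 and 0.50, and Foxa2 and Gata6 had -0.65 and -0.29. Foxp1 with Foxp2 went from -0.05 over all groups to 0.54 over the 43. With log2 median depth, r over the 55 groups was 0.44 for Foxp2, 0.42 for Gata6, 0.16 for Foxp1 and 0.05 for Foxa1. Over the 43 groups it was 0.48 for Foxa1, 0.40 for Foxp1, 0.34 for Foxa2, 0.25 for Foxp2 and 0.23 for Gata6, and the part of depth in these correlations was not tested.

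**Figure D4:**
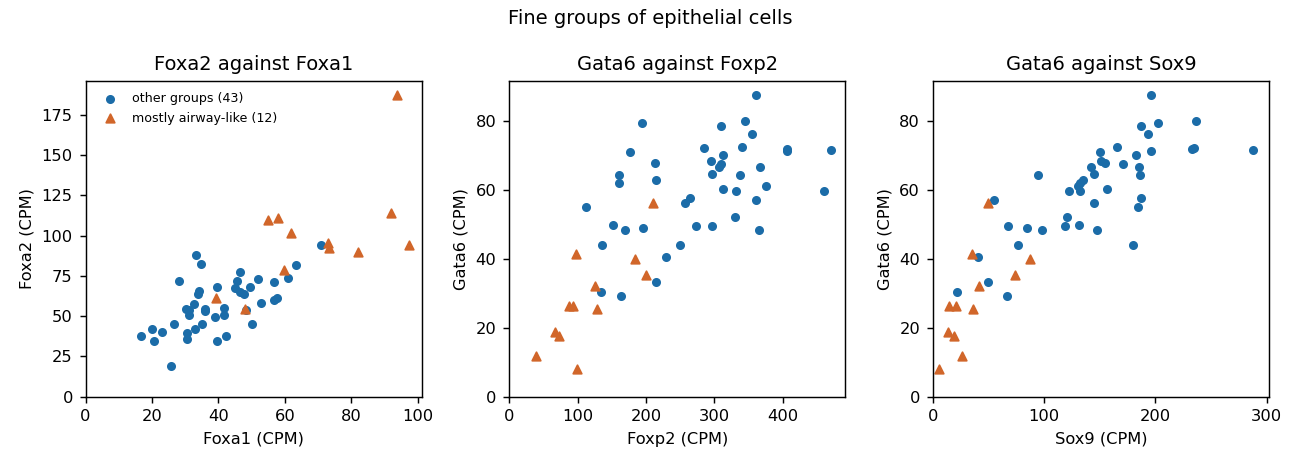
Levels (CPM, linear axes from 0) of pairs of genes in 55 fine groups of epithelial cells: Foxa2 against Foxa1, Gata6 against Foxp2 and Gata6 against Sox9, with the 12 mostly airway-like groups as triangles. Airway-like groups sit at 39.0 to 211 CPM of Foxp2 and 8.03 to 56.3 CPM of Gata6, the others at 112 to 470.1 CPM and 29.3 to 87.6 CPM.

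Across these groups Nkx2-1 ran from 203 to 444 CPM, Foxa1 from 16.7 to 97.2 CPM, Foxa2 from 18.9 to 187 CPM and Foxp1 from 46.1 to 284 CPM. The ranges of airway-like and other groups overlapped for each of the 10 factors. Gata6 was closest to Sox9, the distal progenitor factor, of 4827 genes ranked, at r = 0.90 and 0.80 without airway-like groups, followed by Epha4 and Mia. Foxp2 was closest to Ctnnd2 at 0.88, and 0.75 without airway-like groups, then Eva1a and Hmga2. Foxa1 and Foxa2 had the same first 2 genes, Alcam at 0.84 and 0.85 and Igfbp5 at 0.81 for both. Their r with the airway factor Sox2 was 0.79 each, where Gata6 had -0.83. Without airway-like groups, Alcam was at 0.70 and 0.74 and Igfbp5 at 0.65 and 0.73. The r with Sox2 was then 0.58 for Foxa1, 0.63 for Foxa2 and -0.50 for Gata6. Foxp1 was closest to Tns3 at 0.74 and Nfib at 0.73, and these were at 0.60 and 0.75 without airway-like groups. The highest r was lower for Nkx2-1 and Foxp4: Trir at 0.65 led for Nkx2-1, ahead of Irs1 and Fbxo5, and Zc2hc1a at 0.65 for Foxp4, ahead of Setd2 and Ptprf. These 2 factors also varied least over the groups. Their standard deviations on the log2 scale were 0.24 and 0.28, against 0.74 for Foxp2, and the part of this in the lower r was not tested.

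**Figure D5:**
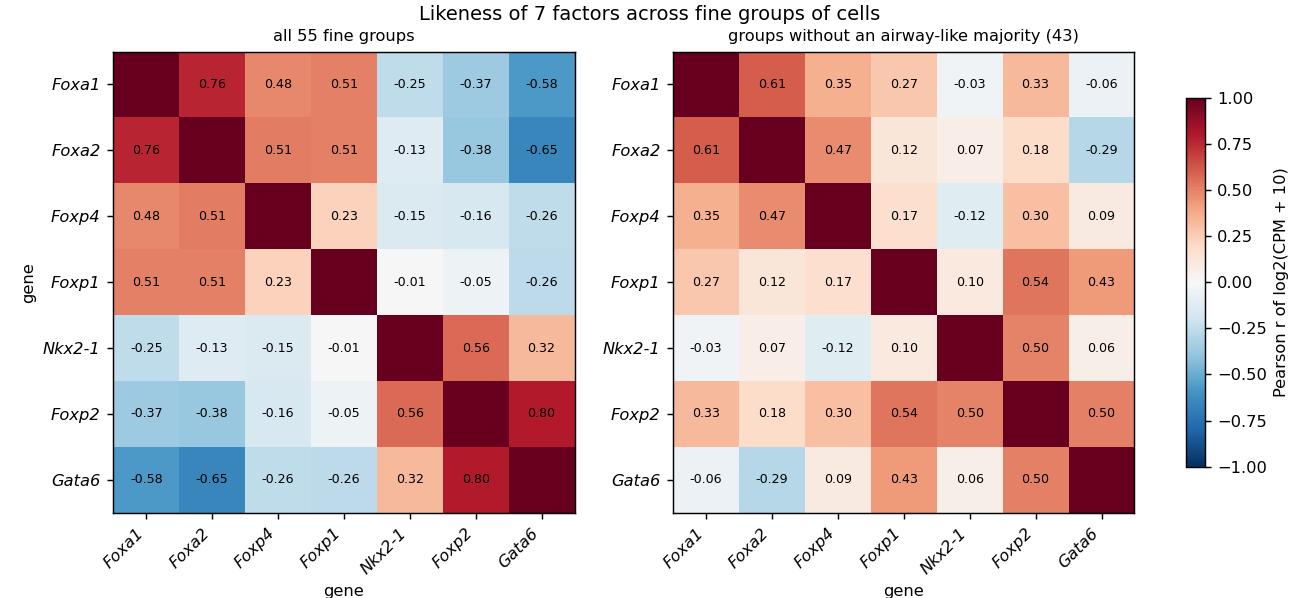
Pearson r of log2(CPM + 10) between 7 factors over 55 fine groups (left) and over the 43 without an airway-like majority (right), on a colour scale from -1 to 1. Foxa1 with Foxa2 (0.76 and 0.61) and Gata6 with Foxp2 (0.80 and 0.50) stay positive in both.

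The factors were set beside genes of the same families and pathways. Of 24 family relatives, 10 had at least 50 UMIs over airway-like and distal cells: 5 were higher in airway-like cells, 1 lower and 4 neither, with a median log2 ratio of 0.46. Each list count of airway-like over distal cells reads against 23.2% higher and 6.55% lower of all genes, with a median of 0.20. The highest ratios were those of the Grainyhead relative Grhl3 (8.75) and the C/EBP genes Cebpd (4.93) and Cebpb (2.60). The lowest were Gata5 (0.151), the ETS gene Ehf (0.698, interval 0.364 to 1.28) and Foxa3 (0.707, interval 0.468 to 1.05). The intervals of Ehf and Foxa3 held 1. Gata5 was thus lower in airway-like cells beside Gata6, at 0.788 CPM, while Foxa3 did not share the direction of Foxa1 and Foxa2.

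Among 24 other transcription factors of lung epithelium, 21 were measured, 11 higher in airway-like cells, 2 lower and 8 neither, with a median log2 ratio of 0.68. The homeobox genes Barx2 (21.9, interval 12.4 to 41.9) and Meis1 (13.3, interval 5.69 to 38.1) were among the highest, on 13 and 6 distal UMIs. The Iroquois genes Irx1 (0.441), Irx2 (0.571) and Irx3 (0.673) were at the other end. Of 11 partners and corepressors of these factors, 9 were measured, 1 higher and 8 neither, with a median log2 ratio of 0.19. Hdac2, a histone deacetylase, had 1.51, Smad3 1.28 and Gatad2b, of the NuRD complex, 1.23. Mta1 of the same complex had 0.814, the corepressor Ctbp1 0.905 and Wwtr1 (TAZ) 1.05.

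Of 11 epithelial junction genes, several of them known Grhl2 targets, 10 were measured, 5 higher in airway-like cells and 5 neither, with a median log2 ratio of 0.60. The tight-junction genes Cldn4 (2.32) and Cldn7 (1.81) and the splicing factor Esrp2 (1.96) led, while Lad1 had 0.817, Esrp1 1.29 and Rab25 1.34. Of 8 surfactant-handling and secretory genes, 4 were measured, 2 lower and 2 neither, with a median log2 ratio of -0.60. These were Ctsh (0.395), a protease that processes surfactant protein, the lamellar-body transporter Abca3 (0.617), the surfactant-lipid enzyme Lpcat1 (0.705) and Cldn18 (0.711). Between type 2-like and distal cells, where 15.5% of all genes were higher and 5.45% lower, 2 of 8 relatives, 0 of 18 other factors, 1 of 9 partners, 2 of 10 junction genes and 1 of 4 surfactant-handling genes were higher, and 1 of the 18 other factors was lower.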

How the data were processed

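The authors deposited a 10x Genomics matrix of raw UMI counts per gene and barcode for the control library. Per the submitters' processing notes, Cell Ranger and Seurat were used with mm10, and the matrix's file header gives software version 3.0.1. How barcodes were called, how doublets were treated and whether counting used strand are not given in the sources used here. No doublet caller was run: cells with at least 4 Xist UMIs and a Y-linked UMI, and cells above 14000 UMIs (a limit from earlier work on these data), were left out in alternatives.

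Cells were clustered with scanpy 1.11.5 and leidenalg 0.10.2 (counts per 10000, 2000 variable genes, 20 principal components, 20 neighbours, resolution 0.5, seed 0) and named from at least 3 markers at 2-fold over all other cells, unless the 10 leading genes held more markers of another class. Clusters left were called distal from 3 distal markers at 1.5-fold over airway-like cells, under the same rule on leading genes. UMIs were summed per class, with exact Poisson intervals for CPM, exact conditional binomial intervals for ratios and Clopper-Pearson intervals for shares. A gene with at least 50 UMIs over both classes counts as higher or lower at 1.5-fold. The interval script was tested on simulated data. Limits after a count of 0 use 3 counts. All 10 factors are named, with up to 3 highest and 3 lowest genes of each other list by airway over distal ratio, and the 3 genes most like each factor with at least 1000 UMIs. Some genes that this rule picks are not reported here. The factors and lists were chosen with earlier results of these data known. Promoter windows and positions come from RefSeq and GENCODE.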

Additional observations from a re-analysis of the deposited data

How the results depend on the processing

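No paired analysis was possible because each genotype has 1 library. No factor past the fold changed direction under the settings run. Ratios within the fold crossed 1 under some settings for Nkx2-1, Gata6, Foxp1, Foxp4 and Cebpa (type 2-like over distal) and for Elf3 (type 2-like over airway-like, 1.02 in cells of at most 14000 UMIs). Of the counts of factors past the fold, airway-like over distal gave 2 higher with 30 principal components (Foxa1 and Foxa2) and 2 at a fold of 2 (Foxa2 and Elf3), and 5 in cells with a Y-linked UMI and no Xist UMI (Foxp4 and Cebpa in, Grhl2 out). In cells high in Xist that lacked Y-linked UMIs, type 2-like over distal gave 2 higher (Elf3 and Cebpa) and 1 lower (Foxa1), and under the looser fold limit tried it gave 1 lower (Foxa1). Type 2-like over airway-like gave 5 lower in cells with a Y-linked UMI and no Xist UMI, 6 under the looser fold limit and 1 at a fold of 2. Shares of all genes past the fold in each of these settings are not given here, so these counts are not read against a background. With 30 principal components, 1665 of all genes were higher in airway-like over distal cells, against 2471 in the main clustering. The mean number of factors per cell was 4.78 without thinning. Pearson r was 0.67 for Nkx2-1 with Foxp2 at resolution 3, and 0.65 for Foxa1 with Foxa2 in cells of at most 14000 UMIs. Where a fold or UMI limit was itself changed, the count moved by construction; elsewhere the cause was not tested.

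The type 2-like class was not separated at resolution 0.3, with 1000 variable genes, with 30 principal components, with cell-cycle genes kept or with the lists kept, so those settings gave no type 2-like values. Counts over all genes ranged, airway-like over distal, from 954 to 4297 higher (2471 in the main clustering) and from 311 to 1416 lower (696). Type 2-like over distal ranged from 497 to 2993 higher (1630) and from 69 to 1986 lower (572), and type 2-like over airway-like from 401 to 2156 higher (1068) and from 906 to 3627 lower (2147). Leaving out the cluster of 27 cells, leaving it out with the cluster led by Xist, and dropping airway-like groups from the correlations were chosen after seeing the data. Depth limits Cebpa and Elf3 most, with 343 and 544 UMIs over all epithelial cells.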

Other observations

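Foxa1 and Foxa2 were found together in 12.6% (10.2 to 15.3) of airway-like cells at equal depth, where the product of their single shares is 10.9%, and in 3.58% (2.61 to 4.77) of distal cells, where it is 3.49%. Foxp1 and Foxp2 were found together in 27.5% of distal cells, where the product is 27.8%. Each product lay within the exact interval of its pair.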
